A study of Mus musculus with 11 samples.

Results

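Genes of glycogen handling were followed in prefrontal neurons of ethanol-withdrawn and naïve mice: the glycogen-targeting subunits of protein phosphatase 1 Ppp1r3b, Ppp1r3c, Ppp1r3d, Ppp1r3e and Ppp1r3f, the glycogen phosphorylases Pygb and Pygm, the glycogen synthase Gys1 and the branching enzyme Gbe1. They are 9 of the 53465 genes in the count files, and each matched 1 Ensembl identifier. Ppp1r3b was selected on its higher counts in the withdrawn mice of these same data, so its difference between groups is a description with no test. The other 8 genes were listed for their role in the pathway, with earlier results of these data known. These 8 are therefore not an independent draw from all genes.

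RNA was sequenced from mPFC CRF1+ neurons of 11 adult male CRF1:GFP mice, a reporter line in which green fluorescent protein (GFP) marks cells that express the corticotropin releasing factor receptor CRF1. The medial prefrontal cortex (mPFC) of each mouse was dissociated, living GFP-positive cells were collected by fluorescence-activated cell sorting, and the cells of 1 mouse made 1 library. The 5 withdrawn mice had inhaled ethanol vapor intermittently for 5 to 6 weeks, with injections of ethanol and of pyrazole, an inhibitor of alcohol dehydrogenase, and were 5 to 8 days into abstinence. The 6 naïve mice breathed air and also received pyrazole. Both groups therefore carry the transgene and the pyrazole, and differ by the ethanol and its withdrawal. The labels call the groups control and ethanol. For withdrawn mice 3, 4 and 5 the source name says control instead. The series description also counts 5 control and 6 ethanol animals, against 6 and 5 by title and treatment. The groups here follow title and treatment, and the results without these 3 mice were also computed.

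Glycogen is the branched store of glucose in animal cells. Glycogen synthase lengthens its chains, the branching enzyme adds branch points, and glycogen phosphorylase releases glucose from the chain ends. The targeting subunits hold protein phosphatase 1 on the glycogen particle, where it dephosphorylates, and so switches on, the synthase and switches off the phosphorylase. In the brain most glycogen lies in astrocytes, and neurons hold little.

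The 250 bases before the RefSeq start site are shown for Ppp1r3c, Pygb and Pygm, the targeting subunit and the phosphorylases whose withdrawn libraries with high values were largely the same mice. A RefSeq promoter (GRCm38.p6) was found for 7 of the 9 genes, all but Ppp1r3b and Ppp1r3e. Capitals mark ACGTG, the core of the hypoxia response element, or its reverse complement. The Ppp1r3c window lies at chr19:36736605-36736854 on the minus strand, the Pygb window at chr2:150786546-150786795 on the plus strand and the Pygm window at chr19:6384158-6384407 on the plus strand.
Ppp1r3c: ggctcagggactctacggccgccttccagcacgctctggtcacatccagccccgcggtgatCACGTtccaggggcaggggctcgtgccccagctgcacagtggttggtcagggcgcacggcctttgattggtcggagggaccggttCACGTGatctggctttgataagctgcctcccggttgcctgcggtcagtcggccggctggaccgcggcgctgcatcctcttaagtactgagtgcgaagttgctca
Pygb: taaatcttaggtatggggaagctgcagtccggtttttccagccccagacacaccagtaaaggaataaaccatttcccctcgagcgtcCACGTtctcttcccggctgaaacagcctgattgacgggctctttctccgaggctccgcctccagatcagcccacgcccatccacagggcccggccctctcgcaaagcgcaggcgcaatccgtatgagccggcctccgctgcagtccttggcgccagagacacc
Pygm: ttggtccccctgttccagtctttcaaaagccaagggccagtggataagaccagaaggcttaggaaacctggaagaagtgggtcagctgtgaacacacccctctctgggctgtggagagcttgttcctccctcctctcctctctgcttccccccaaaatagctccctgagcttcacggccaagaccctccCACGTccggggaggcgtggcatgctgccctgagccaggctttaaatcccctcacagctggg
ACGTG was found on either strand in the windows of 4 of the 7 genes, Ppp1r3c, Ppp1r3d, Pygb and Pygm, and in 16.6% of the 32851 mouse promoter windows of the same length. In Ppp1r3c it began 189, 104 and 103 bases before the start, the last 2 being the strands of a single palindrome CACGTG, the E-box, which overlaps the core by its letters. CACGTG was found in 2 of the 7 windows, Ppp1r3c and Ppp1r3d, and in 6.02% of all windows. TGACG, the half-site of the cAMP response element, was found in 3 windows (Ppp1r3d, Ppp1r3f and Pygb) and in 17.8% of all windows. TATAAA was found in none of the 7 and in 12.4% of all windows. The 3 windows shown had a GC content of 64.4%, 60% and 58.4%, and the median of all windows was 52.4%.

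The libraries held between 7351567 and 22244869 counts on genes. Levels are given as CPM, counts scaled to the library size after TMM normalization, with means ± SD over the 6 naïve (n = 6) and 5 withdrawn mice (n = 5). On total counts, 3 counts are worth 0.135 to 0.408 CPM, a floor that covers counting error only, because amplified reads are not independent molecules. No label says that the mice of a group came from separate litters or cohorts. Crhr1, the gene of the receptor used for sorting, had a mean of 92.7 ± 21.5 CPM in naïve mice and of 89.3 ± 33.6 CPM in withdrawn mice. The 5 markers of glutamatergic neurons summed to 2855 to 4307 CPM in naïve and 1809 to 3903 CPM in withdrawn mice. Among these genes a pair of libraries stood apart. Withdrawn mouse 2 had the lowest level of its group for 6 of the 9 genes, and naïve mouse 5, the library with the fewest genes detected (15585, against up to 31830 elsewhere), was at 0 for 4 of the 9. Both had the lowest share of mitochondrial counts of their group (0.446% and 0.182%, against 0.573% to 1.02% in the other mice). For the genes whose values leaving out either moved most, the value without it is also given.

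In the comparison of withdrawn with naïve mice, Ppp1r3b was close to absent in naïve mice and in withdrawn mouse 2, and present in the other withdrawn mice. Ppp1r3c and Pygb had higher and Ppp1r3e lower levels in withdrawn mice at an unadjusted p under 0.05. The 5 remaining genes did not reach that p. None of the 8 genes other than Ppp1r3b passed edgeR's quasi-likelihood test at a Benjamini-Hochberg adjusted p of 0.05 and a log2 fold change beyond 0.6, where 1 of 17093 genes tested passed (0.00585%). At an unadjusted p under 0.05, 2 of the 8 genes other than Ppp1r3b were higher in withdrawn mice, against 5.00% of all genes tested, and 1 of the 8 was lower, against 2.22%. DESeq2's Wald test called 362 of 21849 genes (1.66%), and 1 of the 8 genes other than Ppp1r3b, Ppp1r3c. All 9 genes passed the low-count filter, Ppp1r3b through the withdrawn group. Of the 9, 6 had a log2 fold change above 0. The median log2 fold change of the 8 genes other than Ppp1r3b was 0.89, and the median of all genes tested was 0.02. Without the 3 withdrawn mice that have a conflicting label, none of those 8 was called, and Ppp1r3c and Pygb had log2 fold changes of 3.58 and 1.39 (edgeR adjusted p = 0.789 each). Only withdrawn mice 1 and 2 were left in that fit, with 52.4 and 0.224 CPM of Ppp1r3c and 261 and 56.3 CPM of Pygb. Both fold changes therefore rested on withdrawn mouse 1.

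**Figure D1:**
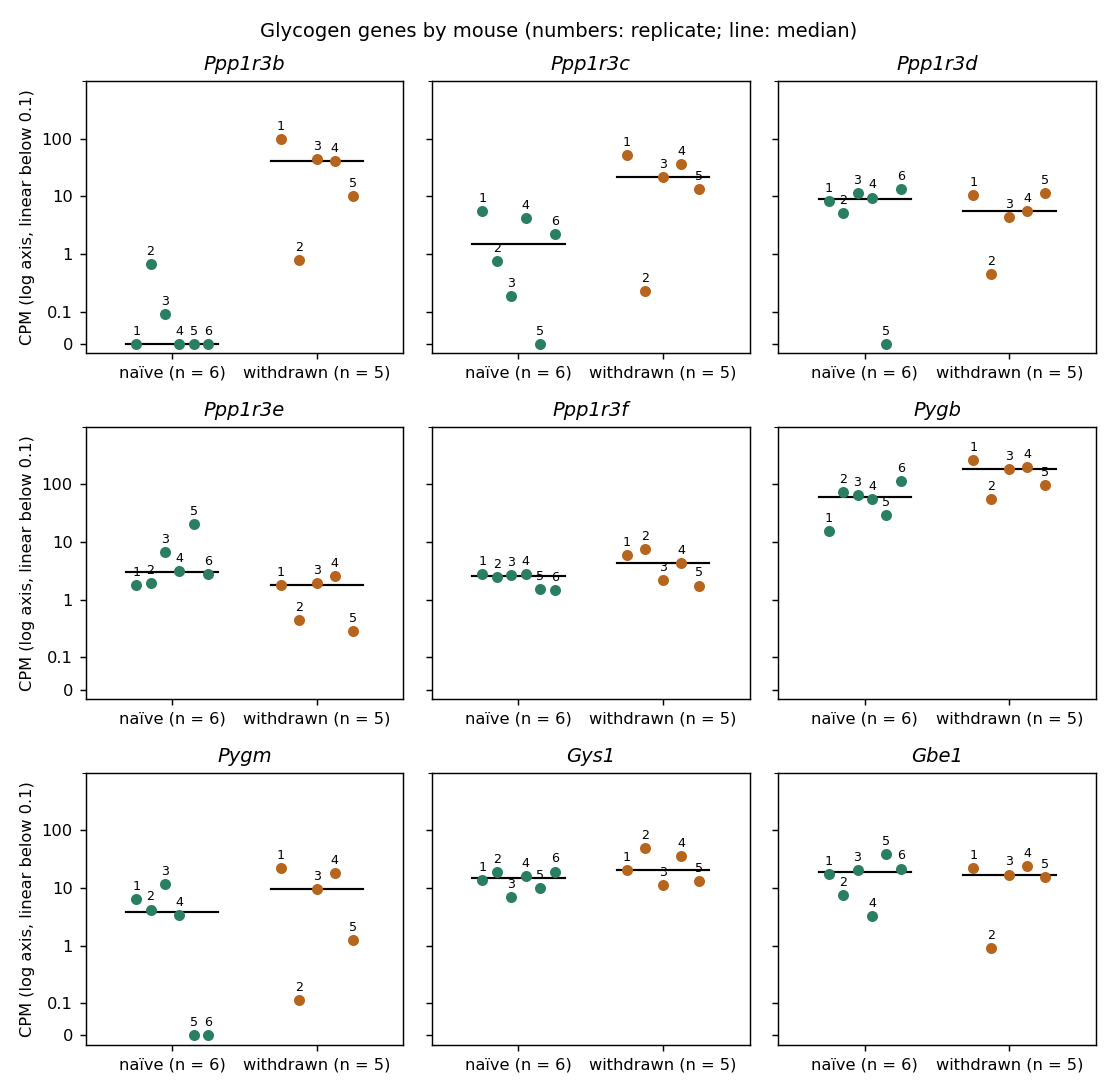
Levels of the 9 glycogen genes in CPM (log axis, linear below 0.1) in each naïve (n = 6) and withdrawn (n = 5) mouse, numbered by replicate, with a line at each group's median. Ppp1r3b lies at 0 to 0.659 CPM in naïve and 0.784 to 98.6 CPM in withdrawn mice, and withdrawn mouse 2 is the lowest withdrawn mouse in the panels of Ppp1r3b, Ppp1r3c, Ppp1r3d, Pygb, Pygm and Gbe1.

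Ppp1r3b encodes the targeting subunit called GL, best known from liver. Its gene model (ENSMUSG00000046794, GRCm38 chr8:35375739-35388139, plus strand) had 0 counts in 4 of the 6 naïve mice, 1 count in naïve mouse 3 and 12 counts in naïve mouse 2. In withdrawn mice 1 to 5 it had 1369, 7, 952, 333 and 141 counts, which are 98.6, 0.784, 44.5, 40.9 and 9.98 CPM. All 5 withdrawn mice lay above all 6 naïve mice, a pattern that 118 of the 17093 genes tested showed (0.690%). None of the 9 genes lay below all naïve mice in all withdrawn mice, as 44 genes did (0.257%). For Ppp1r3b, withdrawn mouse 2, at 0.784 CPM, was close to naïve mouse 2, at 0.659 CPM. The naïve mean was 0.125 ± 0.264 CPM (n = 6) and the withdrawn mean 39.0 ± 38.4 CPM (n = 5), a ratio of 310.5, or 128 when naïve mice with fewer than 3 counts were set to 3. The fitted log2 fold change was 8.04. It was 10.64 without naïve mouse 2, which held 12 of the 13 naïve counts, and 7.36 without withdrawn mouse 1. Withdrawn mouse 1 alone held 50.6% of the withdrawn group's summed CPM. Without withdrawn mouse 2 the mean of the withdrawn mice was 48.5 CPM, and the other 4 mice still spanned a 9.89-fold range.

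Ppp1r3c encodes the targeting subunit PTG, which binds both the synthase and the phosphorylase. Its gene model (ENSMUSG00000067279, chr19:36731731-36736653, minus strand) ranged from 0 to 5.48 CPM in naïve mice, with a median of 1.496 CPM. Withdrawn mice 1 to 5 had 52.4, 0.224, 21.6, 36.0 and 13.2 CPM. Of the 5 withdrawn mice, 4 were above every naïve mouse, and withdrawn mouse 2, with 2 counts, lay among the lowest naïve mice. Its mean was 2.15 ± 2.28 CPM in naïve mice against 24.7 ± 20.2 CPM in withdrawn mice. The log2 fold change was 3.52 (SE 1.14, edgeR adjusted p = 0.393). This difference did not pass edgeR's threshold. DESeq2 gave a log2 fold change of 3.58 and an adjusted p of 0.0490, just inside it, and without withdrawn mouse 2 edgeR gave 3.83 (adjusted p = 0.0944).

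The other 3 targeting subunits did not share that pattern. Ppp1r3d, known as R6, a subunit with a wide tissue range (ENSMUSG00000049999, chr2:178411206-178414472, minus strand), ranged from 0 to 13.7 CPM in naïve mice (median 8.96 CPM) and had 10.7, 0.448, 4.34, 5.53 and 11.6 CPM in withdrawn mice 1 to 5. The groups overlapped over nearly their whole range, with a log2 fold change of -0.30 (95% interval -2.37 to 1.76, adjusted p = 0.974). It was -0.56 without naïve mouse 5, the mouse at 0, and -6.36e-03 without withdrawn mouse 2. Ppp1r3e (ENSMUSG00000072494, chr14:54872669-54877550, minus strand) ranged from 1.83 to 21.0 CPM in naïve mice (median 3.02 CPM) and had 1.80, 0.448, 1.96, 2.58 and 0.283 CPM in withdrawn mice. Of the withdrawn mice 3 lay below every naïve mouse. The naïve mean of 6.26 ± 7.44 CPM rested on naïve mouse 5, at 21.0 CPM, and the withdrawn mean was 1.42 ± 1.00 CPM. The log2 fold change of Ppp1r3e was -2.14 (SE 0.88, adjusted p = 0.608), and -1.21 (adjusted p = 0.788) without naïve mouse 5. Ppp1r3f, a targeting subunit found in brain (ENSMUSG00000039556, chrX:7557296-7574283, minus strand), averaged 2.32 ± 0.631 CPM in naïve mice and 4.37 ± 2.42 CPM in withdrawn mice. Its values of 5.91, 7.50 and 4.43 CPM in withdrawn mice 1, 2 and 4 exceeded every naïve mouse, and those of 2.24 and 1.77 CPM in withdrawn mice 3 and 5 lay inside the naïve range of 1.48 to 2.85 CPM. The log2 fold change was 0.91 (SE 0.61, adjusted p = 0.823). Of the exonic bases of Ppp1r3f 52.9% overlap other genes, among them 2415 bases of Gm36995 on the same strand and 266 bases of Foxp3 on the other, and the kit did not mark the strand, so its reads are not certain to be its own.

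Shares within a library do not depend on how the libraries are scaled. Ppp1r3b was selected on this contrast, so the shares of the targeting subunits are a description. Of the summed counts per kb of exon of the 5 subunits, Ppp1r3b made up 0% in 4 naïve mice, 0.220% in naïve mouse 3 and 3.27% in naïve mouse 2. In withdrawn mice 1 to 5 it made up 39.4%, 6.37%, 40.6%, 28.2% and 15.4%. Ppp1r3c took 0% to 34.4% in naïve mice (median 10.7%) and 47.8%, 4.15%, 45%, 56.5% and 46.3% in withdrawn mice. In 4 withdrawn mice Ppp1r3b and Ppp1r3c together thus made up most of the targeting-subunit signal. Ppp1r3d, with a median share of 47.8%, was the leading subunit in 5 of the 6 naïve mice, and its median was 7.54% in withdrawn mice. The exceptions were naïve mouse 5, where Ppp1r3e made up 96.5%, and withdrawn mouse 2, where Ppp1r3f made up 73.5%. Because shares are parts of a whole, that of Ppp1r3d falls as those of Ppp1r3b and Ppp1r3c rise. The level of Ppp1r3d itself had a log2 fold change of -0.30 (edgeR adjusted p = 0.974).

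**Figure D2:**
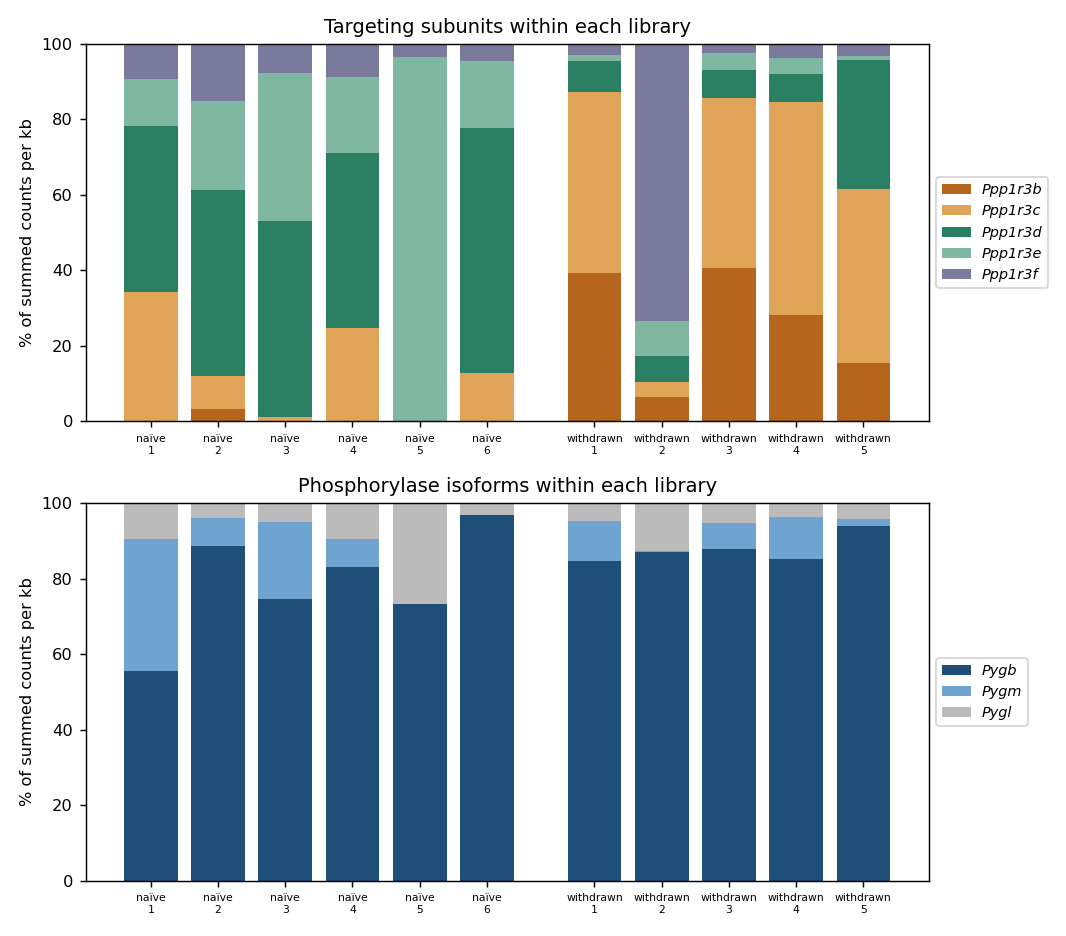
Percent of the summed counts per kb of exon in each library (1 bar per mouse) that belonged to each of the 5 targeting subunits (top) and to each of the 3 phosphorylase isoforms (bottom). Ppp1r3b and Ppp1r3c fill most of the upper bar in withdrawn mice 1, 3, 4 and 5 but 6.37% and 4.15% in withdrawn mouse 2, while Pygb fills 55.5% to 96.8% of the lower bar in naïve and 84.8% to 94.1% in withdrawn mice.

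Among the phosphorylases, Pygb, the brain isoform (ENSMUSG00000033059, chr2:150786735-150831758, plus strand), had the highest mean level per kb of the 9 genes in both groups. It ranged from 15.5 to 116 CPM in naïve mice (median 60.1 CPM) and had 261, 56.3, 188, 200.4 and 98.3 CPM in withdrawn mice 1 to 5. Withdrawn mice 1, 3 and 4 exceeded every naïve mouse, and withdrawn mice 2 and 5 lay inside the naïve range. Pygb averaged 59.2 ± 35.5 CPM in naïve mice against 160.8 ± 82.5 CPM in withdrawn mice. Its log2 fold change of 1.44 (SE 0.46, adjusted p = 0.380) did not pass the threshold. It was 1.64 (adjusted p = 0.129) without withdrawn mouse 2. Pygm, the muscle isoform, which astrocytes also express (ENSMUSG00000032648, chr19:6384399-6398459, plus strand), was at 0 in naïve mice 5 and 6 and at 3.38 to 11.8 CPM in the other 4. Withdrawn mice 1 to 5 had 21.7, 0.112, 9.67, 17.8 and 1.27 CPM of Pygm, with 2 mice above every naïve mouse. Its log2 fold change of 1.23 had an interval of -1.56 to 4.02 (95%, adjusted p = 0.909), too wide to place it on either side of 0.

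The balance of the phosphorylase isoforms was tested within libraries, with Pygl, the liver isoform, as the third. Pygb made up 78.6% ± 14.4 (SD, n = 6) of their summed counts per kb in naïve and 87.8% ± 3.75 (SD, n = 5) in withdrawn mice. The difference of 9.15 percentage points did not exceed the variation among mice (exact permutation test, two-sided, over 462 splits, p = 0.195, adjusted over the 2 within-library tests 0.390). With each mouse left out the difference ranged from 4.52 points without naïve mouse 1, whose Pygb share of 55.5% was the lowest of all (exact p = 0.357), to 12.8 points without naïve mouse 6, whose share of 96.8% was the highest (exact p = 0.0476). Withdrawn mouse 2 had a share of 87.0%, in the middle of its group, although its level of Pygb was the lowest.

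For synthesis, Gys1, the glycogen synthase of muscle and brain (ENSMUSG00000003865, chr7:45434844-45456619, plus strand), ranged from 6.84 to 19.3 CPM in naïve mice (median 15.03 CPM). Withdrawn mice 1 to 5 had 20.7, 48.7, 11.3, 35.5 and 13.3 CPM, and the highest was mouse 2, the mouse that was lowest for most of the other genes. The log2 fold change of Gys1 was 0.87 (SE 0.43, adjusted p = 0.723), and 0.49 (adjusted p = 0.941) without that mouse. Of its exonic bases, 310 overlap Ruvbl2 on the other strand. Gbe1, the branching enzyme (ENSMUSG00000022707, chr16:70313949-70569716, plus strand), ranged from 3.32 to 39.4 CPM in naïve mice (median 18.8 CPM) and had 21.7, 0.895, 17.1, 23.7 and 15.6 CPM in withdrawn mice 1 to 5. In 4 withdrawn mice Gbe1 lay inside the naïve range and in withdrawn mouse 2, with 8 counts, below it. The log2 fold change of Gbe1 was -0.21 (95% interval -1.67 to 1.25, adjusted p = 0.974), and its sign turned, to 0.07, without withdrawn mouse 2 and, to 0.17, without naïve mouse 5.

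The log2 ratio of Gbe1 to Gys1, per kb and with 0.5 counts added to each, compares the transcripts of the branching enzyme and the synthase in the same library. It averaged -0.08 ± 1.64 in naïve mice and -1.23 ± 2.61 in withdrawn mice. The difference of -1.15 was within the spread (two-sided exact permutation test, p = 0.463, adjusted over the 2 within-library tests 0.463). Withdrawn mouse 2, at -5.84, decided it, and the other 4 withdrawn mice lay between -0.74 and 0.44. Without that mouse the difference was -9.46e-04 (exact p = 0.990).

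**Figure D3:**
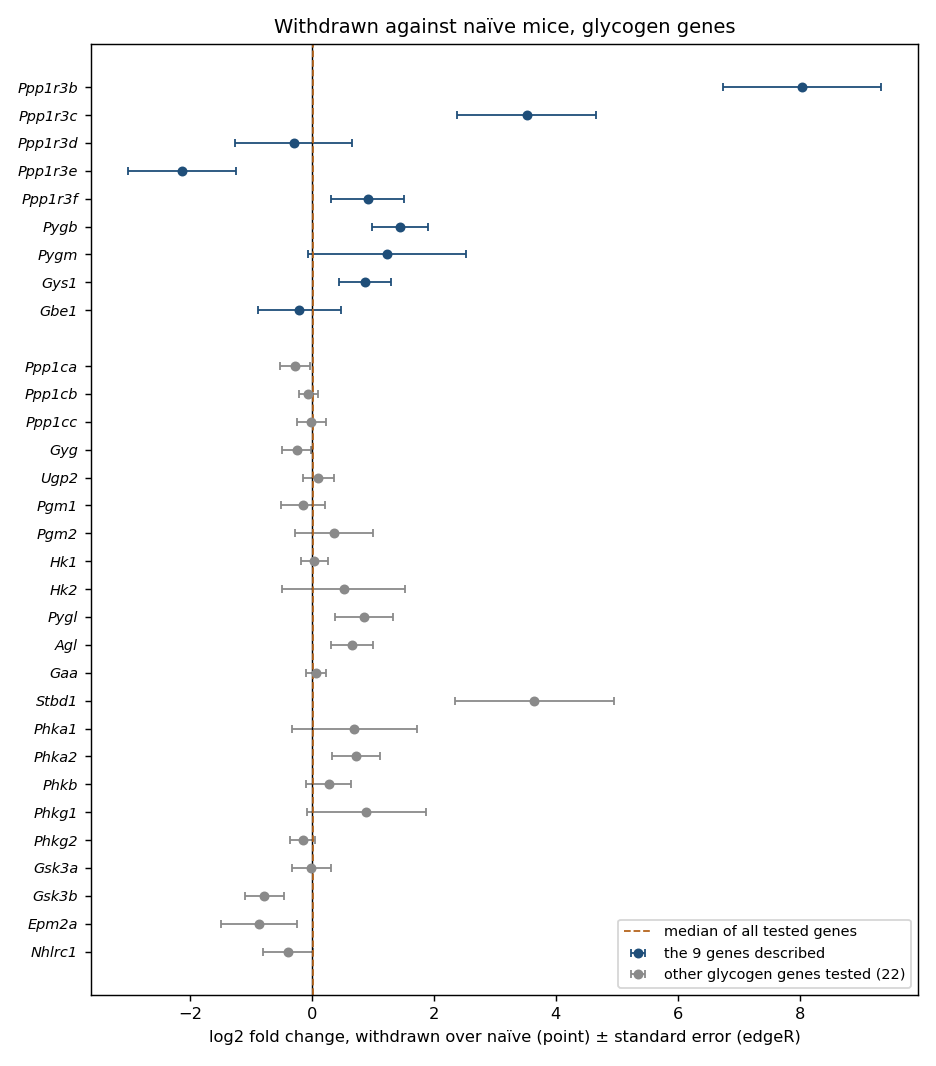
Log2 fold change, withdrawn over naïve, with its standard error (edgeR, n = 6 and 5 mice) for the 9 genes (blue) and for the 22 other glycogen genes tested (grey), with a dashed line at the median of all genes tested, 0.02. Ppp1r3b at 8.04, which was selected on this contrast, Ppp1r3c at 3.52 and Stbd1 at 3.64 lie farthest to the right, and Ppp1r3e at -2.14 farthest to the left.

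Levels of different genes were compared as CPM per kb of exon. In naïve mice the order of the mean levels was Pygb (12.3 ± 7.38 CPM per kb), Gbe1 (3.42), Gys1 (2.95), Ppp1r3e (2.49), Ppp1r3d (2.47), Pygm (1.35), Ppp1r3c (0.790), Ppp1r3f (0.451) and Ppp1r3b (0.0202). Only the last step held in every naïve mouse, with Ppp1r3f above Ppp1r3b in 6 of 6. The other neighbours in the order were not separated in all mice, and Ppp1r3e was above Ppp1r3d in 1 of 6 mice. In withdrawn mice the order was Pygb (33.5 ± 17.2 CPM per kb), Ppp1r3c (9.06), Ppp1r3b (6.27), Gys1 (5.41), Pygm (3.15), Gbe1 (2.95), Ppp1r3d (2.00), Ppp1r3f (0.848) and Ppp1r3e (0.564). Here the first step held in every mouse, with Pygb above Ppp1r3c in 5 of 5, and no other step did. Ppp1r3b thus stood in the last place in naïve mice and in the third in withdrawn mice, where it was above Gys1 in 2 of 5 mice.

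The wider pathway was described with 25 further genes of glycogen synthesis, breakdown and control, of which 22 passed the low-count filter. The targeting subunits Ppp1r3a and Ppp1r3g and the liver synthase Gys2 did not. None of the 22 passed edgeR's threshold or DESeq2's, 12 had a log2 fold change above 0 and 10 below, and their median was 0.05, close to the 0.02 of all genes tested. At an unadjusted p under 0.05, 1 of the 22 was higher and 1 lower, 4.55% each. The higher was Stbd1, a glycogen-binding protein that links glycogen to membranes, at 0.959 ± 1.30 CPM in naïve mice and 12.2 ± 9.07 CPM in withdrawn mice. Stbd1 had a log2 fold change of 3.64 (SE 1.30, adjusted p = 0.473), with 4 withdrawn mice above every naïve mouse and 1 at 0. The lower was Gsk3b, the kinase that phosphorylates and inhibits glycogen synthase, at 218 ± 147 CPM in naïve mice against 127 ± 6.68 CPM in withdrawn mice, with 516.5 CPM in naïve mouse 5. Gsk3b had a log2 fold change of -0.78 (SE 0.31, adjusted p = 0.575), or -0.32 (adjusted p = 0.519) without naïve mouse 5, and 4 of 5 withdrawn mice lay below every naïve mouse.

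By role, the 3 catalytic phosphatase genes had a median log2 fold change of -0.06, the 6 synthesis genes tested 0.07, the 4 breakdown genes 0.75, the 5 phosphorylase kinase genes 0.69 and the 4 regulators -0.59. None of these groups held a gene past the threshold, and the medians, each of 3 to 6 genes, were not tested. Some of these genes rested on a single mouse. The regulators include Gsk3b, at -0.32 without naïve mouse 5. Among the phosphorylase kinase genes, a single withdrawn mouse held up to 64.9% of the withdrawn group's summed CPM of a gene. The highest levels per kb belonged to Ppp1ca, a catalytic subunit of protein phosphatase 1 that the targeting subunits bind (125.9 CPM per kb over all mice), Gaa, the lysosomal glycogen-degrading enzyme (116), and Hk1, the hexokinase that traps glucose in the cell (42.9). Their log2 fold changes were -0.28, 0.06 and 0.03, with standard errors of 0.25, 0.17 and 0.22. That of Ppp1ca turned to 0.04 without naïve mouse 5, which had 688 CPM, and that of Gaa to -0.05 without naïve mouse 1. That of Hk1 turned to -0.13 without withdrawn mouse 3, -0.06 without naïve mouse 1, and -0.03 without withdrawn mouse 2 or 5. Without the 3 mice with a conflicting label that of Hk1 was -0.08.

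Markers of other cell types moved with some of these genes. In bulk libraries fewer cells of a type and less RNA per cell cannot be told apart. Of 6 fibroblast markers 4 were tested, and all 4 (Dcn, Col1a1, Col1a2 and Ogn) were higher in withdrawn mice at an unadjusted p under 0.05. The other 2, too low to be tested, had lower means in withdrawn mice, Lum with 0.910 CPM against 1.36 CPM and Igf2 with 0.0916 CPM against 0.468 CPM. The 6 markers summed to 0.0677 to 59.3 CPM in naïve mice (median 15.7 CPM) and to 1283, 10.9, 620, 873 and 224 CPM in withdrawn mice 1 to 5. Withdrawn mouse 2, the lowest for Ppp1r3b, Ppp1r3c, Pygb and Pygm, was thus also the withdrawn mouse with the lowest fibroblast sum, and withdrawn mouse 1, the highest for those 4 genes, had the highest. Of 10 astrocyte markers 9 were tested, 3 of them (Gja1, S100b and Gjb6) were higher and 1 (Aldoc) lower at that p, and 3 of the 9 had a log2 fold change above 0. Their sum was 345 to 562 CPM in naïve mice (median 454 CPM) and 930, 266, 759, 1021 and 570 CPM in withdrawn mice 1 to 5. The higher sums came mainly from Gja1 and Gjb6, with means of 15.3 and 9.005 CPM in naïve and 187 and 186 CPM in withdrawn mice. S100b averaged 18.1 and 44.2 CPM, and every other marker of the list had a lower mean in withdrawn mice. Aldh1l1, Aqp4, Gfap and Slc1a3, defining markers of astrocytes, had means of 8.37, 1.67, 1.06 and 14.4 CPM in withdrawn mice and 9.14, 3.32, 12.2 and 22.1 CPM in naïve mice. No marker of any list was at 0 in all mice of a group. The part of fibroblast or astrocyte RNA in the levels of Ppp1r3b, Ppp1r3c, Pygb and Pygm was not tested.

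At an unadjusted p under 0.05, Tmem119 of the 3 microglial markers tested and Pdgfrb of the 5 mural markers tested were higher, and no marker of oligodendrocytes (5 tested), their precursors (3), endothelium (6), glutamatergic neurons (5) or GABAergic neurons (4) was higher or lower. The microglial sum was 7.84 to 24.2 CPM in naïve and 8.28 to 44.3 CPM in withdrawn mice, and the mural sum was 0.135 to 165 CPM and 11.4 to 207 CPM. The endothelial sum was 3.18 to 627 CPM in naïve mice (median 236 CPM) and 38.2 to 481 CPM in withdrawn mice (median 59 CPM), with wide overlap. The medians of the microglial sum were 15.6 CPM and 37.2 CPM.

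**Figure D4:**
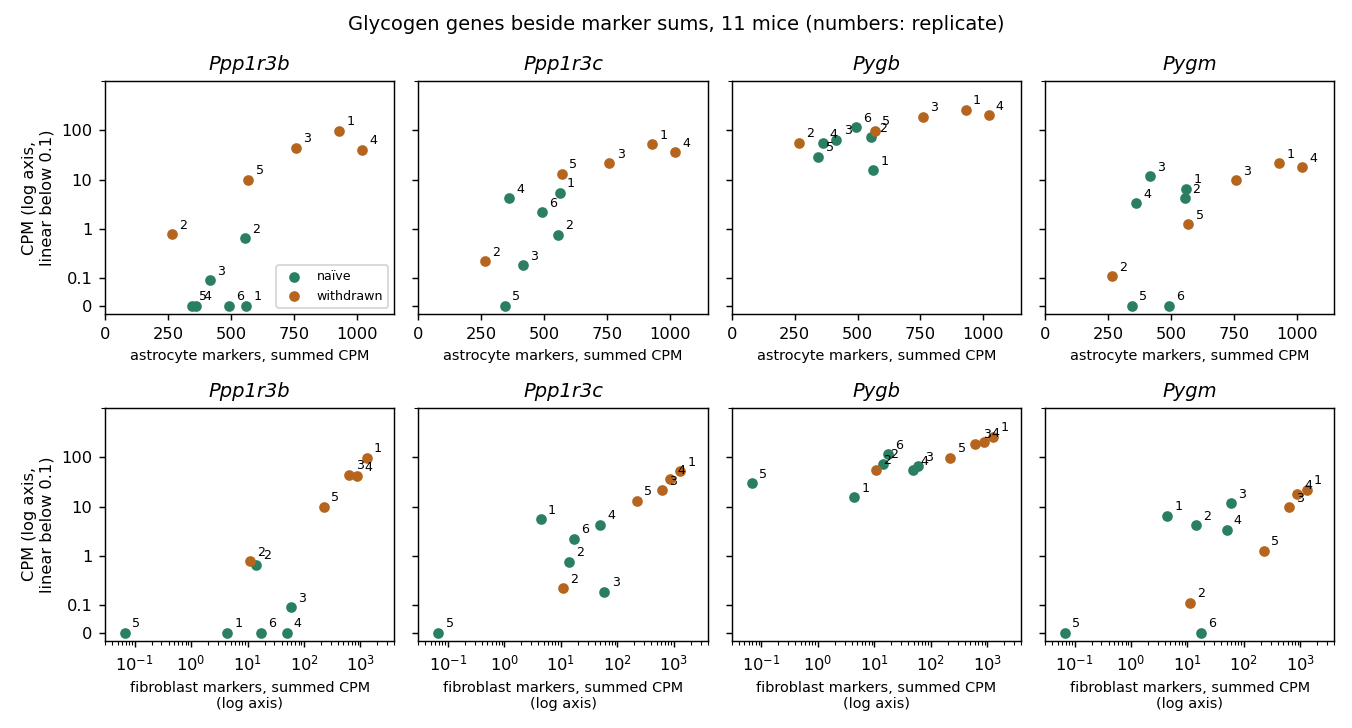
Level of Ppp1r3b, Ppp1r3c, Pygb and Pygm (CPM, log axis that is linear below 0.1) in each of the 11 mice against the summed CPM of 10 astrocyte markers (top, linear axis) and 6 fibroblast markers (bottom, log axis), with mice numbered by replicate. The 4 withdrawn mice 1, 3, 4 and 5 have 224 to 1283 CPM of fibroblast markers and 9.98 to 98.6 CPM of Ppp1r3b, while withdrawn mouse 2 lies with the naïve mice at 10.9 CPM of fibroblast markers. The higher astrocyte sums come mainly from Gja1 and Gjb6, and most markers of that list have lower means in withdrawn mice.

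The genes whose pattern was most like that of Ppp1r3b beyond the group difference were sought among 11833 genes with a mean of at least 5 CPM, from the deviations of log2 CPM from the group means over the 11 mice. The 5 most alike were Tmem123 (Pearson's r = 0.946, Spearman's rho = 0.865), Pla2g4e (0.940 and 0.875), Htra1 (0.936 and 0.740), Pus7 (0.933 and 0.726) and Ptgdr (0.933 and 0.831). Without withdrawn mice 1 and 2, the 2 mice farthest from the median, their r was 0.849, 0.766, 0.802, 0.807 and 0.720. These values are the highest of many, share the scaling of the same libraries and are given without a test. The mean of 5 CPM was taken over all mice, so Ptgdr, at 0.0593 CPM in naïve and 24.3 CPM in withdrawn mice, entered through the withdrawn group. Ppp1r3b had 0 counts in 4 of the 6 naïve mice, where its deviations are ties, so r rested largely on the withdrawn mice. Of the other 8 glycogen genes, Pygm (r = 0.702), Pygb (0.662), Ppp1r3c (0.640) and Gbe1 (0.624) were the most alike, and without the 2 mice Pygm and Pygb had r = 0.516 and 0.454 and Ppp1r3c and Gbe1 0.0231 and -0.0429. The likeness of Ppp1r3c to Ppp1r3b within groups therefore rested on those 2 mice.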

How the data were processed

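Raw counts per Ensembl gene, 1 file per mouse, were analysed as the authors deposited them. Upstream, 160 pg of RNA from each mouse was reverse transcribed and amplified (SMARTseq HT, 14 PCR cycles, a kit that does not mark strand) and read as 75 nt. The authors used cutadapt 1.18 for trimming, STAR 2.5.2a for mapping (GRCm38, Ensembl release 91), HTSeq 0.11.0 for counting and DESeq2 1.20.0 for testing. Whether HTSeq used strand is not given in the sources used here. Symbols, coordinates and exon lengths came from GENCODE M21 on the same assembly, which names 53360 of the 53465 identifiers.

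Groups follow title and treatment. No 2 libraries agreed within sampling noise (chi-square per degree of freedom at least 29.3 within groups). Rows of reads not assigned to a gene were left out. They made up 18.9% to 58.0% of the tallied reads, and those outside exons made up 5.77% to 48.1%. Withdrawn mouse 4 had the largest share outside exons and the lowest share on genes (42.0%). Genes passing filterByExpr (minimum count 10, minimum total 15) were compared with edgeR 4.0.16 (TMM, quasi-likelihood test, Benjamini-Hochberg adjustment over all genes tested), in R 4.3.3, and with DESeq2 1.42.0 as an alternative. The standard error is the log2 fold change divided by the square root of F. Intervals of a log2 fold change use the t distribution at the degrees of freedom of the fit. log2 CPM used a prior count of 2. Within-library values were compared with exact permutation tests. The main fit used no block for replicate number, and a fit with that block was run as an alternative. The tests were tested on simulated data.

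The members and gene lists were chosen with earlier results of these data known. Named are all 9 members, the other glycogen genes with an unadjusted p under 0.05 or among the 3 highest per kb, and the 5 genes most like Ppp1r3b. Markers were named from their lists after their values were seen. Alternatives were other normalizations, tests and filters, a replicate block, the 3 mice with a conflicting label left out, and each mouse left out in turn.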

Additional observations from a re-analysis of the deposited data

Results flagged for a closer look

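Of 22 sets of values (each of the 9 genes and both within-library measures, in each group), 5 held 1 mouse whose gap to the nearest other mouse exceeded the 95% critical value of Dixon's test. Chance would give about 1 in 20, or 1.1 of 22, if the sets were independent and normally distributed, which they are not. Gbe1 and its ratio to Gys1 share the 8 counts of withdrawn mouse 2, and Ppp1r3b had 0 counts in 4 of the 6 naïve mice. The 5 sets therefore cannot be weighed against the 1.1. For Ppp1r3b, naïve mouse 2 was at -0.32 on the log2 CPM scale (prior count 2), above the other naïve mice, the nearest at -2.07. For Ppp1r3c, withdrawn mouse 2 was at -1.44 log2 CPM, and the nearest withdrawn mouse at 3.73. For Ppp1r3d, naïve mouse 5 was at -2.80 log2 CPM, and the nearest naïve mouse at 2.42. For Gbe1, withdrawn mouse 2 was at 0.0558 log2 CPM, and the nearest at 3.97. The log2 ratio of Gbe1 to Gys1 was -5.84 in withdrawn mouse 2, and -0.74 in the nearest. Of the 5 sets, 3 concern withdrawn mouse 2, which had 23659 genes with a count and 49.8% of its reads on genes, neither the lowest of its group, and 0.446% of its counts on mitochondrial genes, the lowest of its group. Naïve mouse 5 had 81.1% of its reads on genes, the most of all mice, 5.77% on no exon, the least, and 0.182% of its counts on mitochondrial genes, also the least. Whether these properties bear on the values was not tested.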

How the results depend on the processing

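The count of genes called over all genes, 1 by edgeR, was 362 by DESeq2's Wald test, 137 with no low-count filter, 30 with at least 10 counts in every mouse, 0 with a replicate block, 0 without the 3 withdrawn mice with a conflicting label, and 0 to 193 with each mouse left out in turn. It was 193 without withdrawn mouse 2 and 6 without naïve mouse 2. Of the 8 genes other than Ppp1r3b, 1 was called by DESeq2 (Ppp1r3c) and 0 under every other alternative. The other glycogen genes had 0 calls under every alternative. The log2 fold change of Gbe1 was reversed without naïve mouse 5 (0.17) and without withdrawn mouse 2 (0.07), and it ranged from -0.43 to 0.17 with each mouse left out. With each mouse left out, the Pygb share differed by 4.52 to 12.8 percentage points and the log2 ratio of Gbe1 to Gys1 by -1.63 to -9.46e-04. The 8 genes other than Gbe1 kept the sign of their log2 fold change under every alternative in which they were tested, and with at least 10 counts in every mouse those were Gys1, Ppp1r3f and Pygb. The median of all genes moved to 0.25 with DESeq2 and 0.17 with no filter. Ppp1r3b, selected on this contrast, was above all naïve mice in 5 of 5 withdrawn mice under 3 scalings of library size. The gap was narrow, with 0.784 to 0.805 CPM in the lowest withdrawn mouse and 0.648 to 0.672 CPM in the highest naïve mouse. Agreement of the scalings is therefore no evidence that withdrawn mouse 2 differed from naïve mice.

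Replicate numbers are shared by 5 naïve and 5 withdrawn mice. Same-numbered mice had correlated deviations of -0.20 to 0.18, and 1 withdrawn mouse was best correlated with its own number. The numbers showed no pairing on this measure, which cannot exclude that same-numbered mice shared a litter or a batch. With the replicate block the log2 fold changes of Ppp1r3c and Pygb were 3.93 and 1.74. With few mice and a floor of up to 0.408 CPM, a low level in a single library cannot be told from absence. The intervals of Ppp1r3d, Ppp1r3f, Pygm, Gys1 and Gbe1 leave room for differences of either sign. Those of Ppp1r3c, Pygb and Ppp1r3e do not, but intervals are not adjusted for the number of genes tested. The edgeR adjusted p of these 3 genes were 0.393, 0.380 and 0.608.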
